A study of Mus musculus with 6 samples.

Results

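A set of 10 genes of plasma membrane amino acid transport was followed in leukemia stem cells (LSCs) with and without deletion of *Piezo1*, which encodes a mechanosensitive cation channel. They were chosen by gene symbol and role, and no threshold on their values was applied. Earlier results of these data were known, and the study had reported *Slc7a11* and *Slc3a2* as lower. The set holds the cystine carrier *Slc7a11*, the shared heavy chain *Slc3a2*, the large neutral and exchange light chains *Slc7a5* and *Slc7a6*, the cationic carrier *Slc7a1*, the neutral carriers *Slc1a4*, *Slc1a5*, *Slc38a1* and *Slc38a2*, and the glycine carrier *Slc6a9*. All 10 were found among the 55367 genes listed, of which 26402 had values, and all 10 were tested. Amino acids cross the cell surface through carriers that differ in substrate and in coupling. Several light chains of the Slc7 family reach the membrane only when disulfide-linked to the glycoprotein *Slc3a2* (CD98 heavy chain), and the pair of *Slc3a2* and *Slc7a11*, called system Xc-, imports cystine in exchange for glutamate and so feeds glutathione synthesis. Sodium-coupled carriers load the cell with small neutral amino acids, which the exchangers then trade for essential ones such as leucine, and many of these genes are known targets of the amino acid starvation response through *Atf4*.

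RNA was sequenced from 3 WT and 3 Piezo1cko libraries of LSCs from mice with acute myeloid leukemia. Piezo1cko donors carried *Mx1-cre* and *Piezo1* fl/fl and received pIpC, an interferon inducer, and WT donors were *Piezo1* fl/fl littermates without the Cre that received pIpC too, so that "WT" cells also carried the floxed allele. Lin- bone marrow cells of both were transduced with an MLL-AF9-YFP retrovirus, which drives the leukemia, and transplanted into irradiated recipients. The bone marrow came from mice of 8 to 10 weeks, and LSCs are defined in the study as YFP+ Lin-Sca-1-c-Kit+CD16/32hiCD34+ cells. The Mx1 promoter responds to interferon, so deletion is not limited to leukemic cells. The labels do not say whether the libraries of a group came from separate mice or pools, and p-values here measure only the spread between these libraries, which may be technical.

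The deposited values are log2 levels shrunken towards each gene's mean, so that differences are compressed, the more so the fewer reads a gene has. The transform could be undone, and 92.8% of the values of genes with a mean of at least 1 read came out within 0.1 of a whole number. Below a mean of 1 read only 26.4% of values did, so the reads of such genes are uncertain. Libraries held 14112122 to 15483612 recovered reads. Both scales are given below: the deposited scale for the test, and reads divided by the library's size factor ("normalized reads") for the size of a difference. *Piezo1* itself, the targeted gene, had 101, 92.8 and 109 normalized reads in the WT and 36.6, 56.5 and 45.8 in the Piezo1cko libraries, so that 45.9% of the WT level remained in reads counted over the whole gene. The groups did not overlap (log2 fold change -0.29 on the deposited scale, limma adjusted p = 5.80e-06).

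Of the genes behind the sort, *Kit* (2522 to 3425 normalized reads) and *Cd34* (3721 to 5796) were higher in Piezo1cko LSCs, *Fcgr2b* was lower (3468 to 1667), *Fcgr3* did not pass the test (5405 to 5323), and *Ly6a*, which encodes Sca-1, was higher at a low level (0.660 to 11.4). Marker lists of other blood cells moved with the genotype as well. The 6 neutrophil markers summed to 168 to 170 CPM (reads scaled to the library total) in WT and 58.8 to 61.7 in Piezo1cko libraries, with 5 lower and *Mmp8* higher, and the 6 mast cell and basophil markers to 189 to 200 and 764 to 778, with 5 higher. The 5 measured B cell markers, among them *Ighm* and *Cd79b*, summed to 826 to 852 CPM in WT and 1501 to 1526 in Piezo1cko libraries. Of the 3 tested, 3 were higher and 0 lower, and *Ms4a1* and *Pax5* had at most 1 normalized read on average. The 6 erythroid markers summed to 5.98 to 7.32 and 1.71 to 2.29 CPM, and *Klf1* made up most of both sums. On deposited values 1 of the 3 tested was lower and 0 higher, and on recovered reads 2 of 4 were lower. The sums of T cell (4.05 to 4.65 and 4.13 to 6.98), macrophage (61.8 to 67.0 and 62.2 to 70.4) and megakaryocyte markers (18.5 to 23.1 and 18.5 to 21.3) overlapped between the groups, although single genes moved: 2 of the 4 macrophage markers tested were higher and 0 lower, and 2 megakaryocyte markers were lower and 2 higher. These shifts separate the same libraries as every transporter below, their part in the transporter values was not tested, and in bulk RNA fewer cells of a type cannot be told apart from less RNA per cell.

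Of the 10 transporters, 9 were lower in Piezo1cko LSCs and 1, *Slc38a1*, was higher. Each passed an adjusted p under 0.05 over all 16746 genes tested (limma on deposited values), where 31.4% of genes were lower and 31.6% higher, and each kept its groups apart, which 33.1% of genes did downwards and 33.5% upwards. With all libraries shifted to the same median the split over all genes was 4214 lower and 6450 higher, against 5258 and 5298, and the calls of the 10 stayed as they were. The study's threshold for a DEG adds an absolute log2 fold change over 1, and was applied there to DESeq2 results from counts. On the shrunken deposited values it was passed by 4 transporters, *Slc7a11*, *Slc3a2*, *Slc7a5* and *Slc1a4*, all lower. Of all genes, 0.561% passed it as lower and 0.257% as higher. On recovered reads (limma-voom, 17352 genes) the same 9 were lower and *Slc38a1* higher, with 32.3% and 30.7% of all genes called. *Slc7a1* and *Slc6a9* then joined the 4 others as DEGs, 6 transporters in all, beside 12.3% of genes lower and 12.6% higher. For the 10 together the median log2 fold change was -0.61 as deposited and -1.34 on reads, against 0.00 and -0.01 over all genes tested. Since the 10 were chosen with earlier results known, these counts and medians are a description and not a test of the set.

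**Figure D1:**
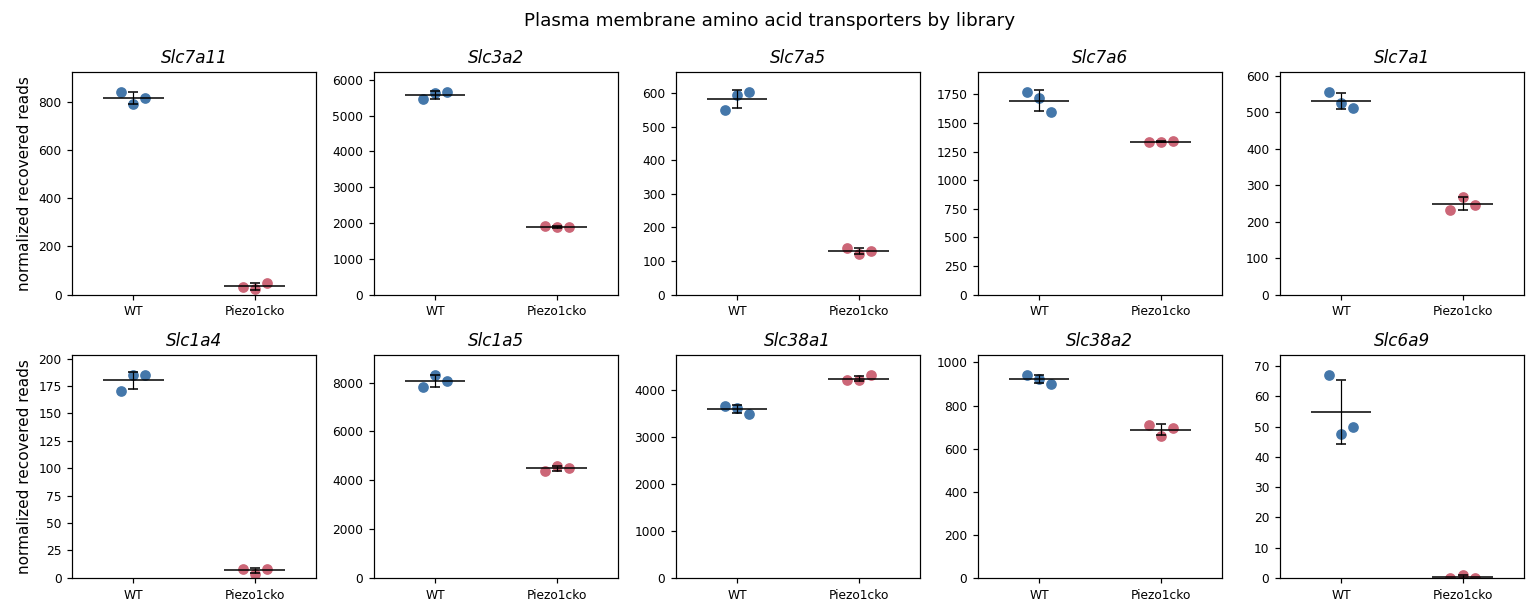
Normalized recovered reads of each of the 10 transporters in the 3 WT and 3 Piezo1cko libraries (1 point each, y axis from 0). Lines are group means and bars the SD. The Piezo1cko libraries lie below the WT libraries in 9 panels and above them for *Slc38a1*, and *Slc7a11*, *Slc1a4* and *Slc6a9* come close to 0.

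The cystine carrier *Slc7a11* (chr3:49892526-50443614, minus strand, GRCm38) fell furthest on the deposited scale. Its normalized reads were 839, 788 and 817 in the WT libraries and 30.3, 22.4 and 47.8 in the Piezo1cko libraries. The highest Piezo1cko library therefore stood far below the lowest WT library, and 4.11% of the WT mean remained (815 ± 25.6 to 33.5 ± 13.0, SD, n = 3 each). The deposited level went from 9.01 ± 0.03 to 6.80 ± 0.12, which is a log2 change of -2.21 (95% interval -2.31 to -2.10, limma adjusted p = 2.67e-17), at rank 9 from the lowest of all 16746 genes. On recovered reads the log2 fold change was -4.67 (95% interval -5.09 to -4.25, limma-voom adjusted p = 2.26e-11). Among the Piezo1cko libraries, *Slc7a11* varied more than the abundant carriers did, with 23 to 47 recovered reads.

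Its heavy chain *Slc3a2* (chr19:8706882-8723369, minus strand), which anchors *Slc7a11* and the other light chains in the membrane, fell less and with less spread. It had 5458, 5635 and 5654 normalized reads in the WT libraries and 1911, 1874 and 1879 in the Piezo1cko libraries. The values within each group lay within a few percent of each other, and 33.8% of the WT mean remained (5582 ± 108 to 1888 ± 19.6). The log2 fold change was -1.12 on the deposited scale (95% interval -1.17 to -1.07, limma adjusted p = 2.32e-17) and -1.58 on reads (95% interval -1.65 to -1.51). The intervals of *Slc3a2* and *Slc7a11* are apart on both scales, so the partners in system Xc- did not fall in proportion.

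The start regions of transporters with different falls are shown for comparison, 250 bases before to 50 after the annotated start on the gene's strand, from the RefSeq promoter table (GRCm38.p6). Of the 10 genes, 7 were matched, with 11 start regions, and *Slc7a5*, *Slc1a5* and *Slc38a1* were not. Motifs were searched on both strands: TGATGNAAN, the composite element read by C/EBP and ATF factors such as *Atf4*, the antioxidant response element read by *Nfe2l2*, and the core letters read by *Hif1a*, which are ACGTG or GCGTG or, as a variant, GCGTA. Capitals mark every match in the regions of *Slc7a11* (chr3:50443564-50443863, minus strand), *Slc1a4* (chr11:20332664-20332963, minus strand) and *Slc3a2* (chr19:8713848-8714147, minus strand).
Slc7a11: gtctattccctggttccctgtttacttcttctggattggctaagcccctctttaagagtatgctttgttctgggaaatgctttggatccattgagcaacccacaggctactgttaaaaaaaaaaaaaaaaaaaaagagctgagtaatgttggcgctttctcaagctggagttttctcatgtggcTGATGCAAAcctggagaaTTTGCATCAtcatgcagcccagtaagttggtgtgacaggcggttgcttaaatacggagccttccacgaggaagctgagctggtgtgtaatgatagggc
Slc1a4: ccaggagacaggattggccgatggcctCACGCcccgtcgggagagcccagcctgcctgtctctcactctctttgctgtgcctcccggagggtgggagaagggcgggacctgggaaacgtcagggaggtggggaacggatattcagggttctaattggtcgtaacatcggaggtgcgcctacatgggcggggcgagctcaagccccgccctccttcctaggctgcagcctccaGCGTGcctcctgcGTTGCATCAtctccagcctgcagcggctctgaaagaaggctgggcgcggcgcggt
Slc3a2: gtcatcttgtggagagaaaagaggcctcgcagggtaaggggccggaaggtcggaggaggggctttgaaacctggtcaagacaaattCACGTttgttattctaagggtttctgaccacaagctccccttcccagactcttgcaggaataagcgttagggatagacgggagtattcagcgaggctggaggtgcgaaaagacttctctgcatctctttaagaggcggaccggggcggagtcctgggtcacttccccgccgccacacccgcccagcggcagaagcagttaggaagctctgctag
The *Slc7a11* region held the composite element at 2 positions, beginning 66 and 48 bases before the start in opposite orientations, and no hypoxia core. *Slc1a4* held 1 composite element, 5 bases before the start, and GCGTG at 223 and 18 bases before it. *Slc3a2* held ACGTG 164 bases before its start and no composite element. Of the 7 genes, *Slc7a11* and *Slc1a4* were the ones with the composite element. It was in 2 of the 11 regions, against 3.95% of all 32851 RefSeq start regions. *Slc6a9*, described below, held none in its 3 regions. A hypoxia core was present in 9 of the 11 regions, against 47.8% of all regions (19.6% hold ACGTG, 32.4% GCGTG and 9.99% GCGTA). The *Slc7a6* regions overlap and share matches, so these regions are not independent. By gene, 6 of the 7 held a hypoxia core, all but *Slc7a11*, and no share per gene was computed for all genes. The antioxidant element was in 0 of the 11 regions, against 3.04%. A match in these windows is a description of the letters and not a site of binding, and the lack of a match says nothing of a factor or of sequence outside the window.

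The large neutral carrier *Slc7a5* (LAT1, chr8:121881150-121907694), which exchanges glutamine for leucine and other large neutral amino acids, fell on both scales. It had 551, 594 and 603 normalized reads in WT and 139, 121 and 129 in Piezo1cko libraries. All Piezo1cko values lay far below the WT values, at 22.2% of the WT mean. The log2 fold change was -1.13 on the deposited scale (95% interval -1.21 to -1.05, limma adjusted p = 1.63e-14) and -2.18 on reads (95% interval -2.38 to -1.98). The deposited change was close to that of *Slc3a2* (-1.12). On reads the intervals were apart (*Slc3a2* -1.65 to -1.51), so *Slc7a5* fell by more than its heavy chain.

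*Slc7a6* (y+LAT2, chr8:106168857-106198706), the light chain that releases cationic amino acids against neutral ones, fell far less. It had 1771, 1721 and 1598 normalized reads in WT and 1331, 1337 and 1344 in Piezo1cko libraries, 78.8% of the WT mean. The groups were apart by more than the WT range. The log2 fold change was -0.23 on the deposited scale (limma adjusted p = 4.16e-06) and -0.35 on reads (95% interval -0.45 to -0.26), an interval well apart from that of *Slc7a5*. Of the other light chains known to pair with *Slc3a2*, the related exchanger *Slc7a7* was lower (198 ± 10.5 to 158 ± 8.48 normalized reads, log2 fold change -0.14 on the deposited scale, adjusted p = 0.00479) and *Slc7a8* (LAT2) higher (58.5 ± 8.99 to 91.2 ± 17.1, 0.17, adjusted p = 0.00279), and *Slc7a10* was listed at 0. In all, 4 of the 5 measured light chains were lower and 1 higher, beside 31.4% and 31.6% of all genes tested. Of these, *Slc7a11*, *Slc7a5* and *Slc7a6* are already counted among the 10.

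Because light chains share 1 heavy chain, their levels per exonic length (RPKM, which divides reads by exon length and library total) were also set side by side. The summed RPKM of the 5 light chains was 43.5 to 45.5 in WT and 26.5 to 26.7 in Piezo1cko libraries, while *Slc3a2* went from 107 ± 2.22 to 36.0 ± 0.361 RPKM. The heavy chain therefore lost more than its partners did in sum, and the ratio of *Slc3a2* to summed light chains was 2.30, 2.42 and 2.50 in WT and 1.37, 1.35 and 1.34 in Piezo1cko libraries. The groups did not overlap, though exact permutation of 3 against 3 libraries cannot give a two-sided p under 0.1. The makeup of the light chain pool changed with it. *Slc7a11* made up 8.89% ± 0.297 of light chain RPKM in WT and 0.607% ± 0.233 in Piezo1cko LSCs, and *Slc7a5* 23.9% ± 1.65 and 8.83% ± 0.600. The share of *Slc7a6* went from 56.4% ± 1.66 to 73.9% ± 0.350, that of *Slc7a7* from 9.05% ± 0.513 to 12.0% ± 0.608 and that of *Slc7a8* from 1.77% ± 0.233 to 4.60% ± 0.877. Shares of a falling sum rise without a rise in level, as for *Slc7a6* and *Slc7a7*. Levels per length rest on the union of annotated exons, which is long for *Slc7a11* (13922 bases), and RNA was measured here, not protein at the membrane.

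**Figure D2:**
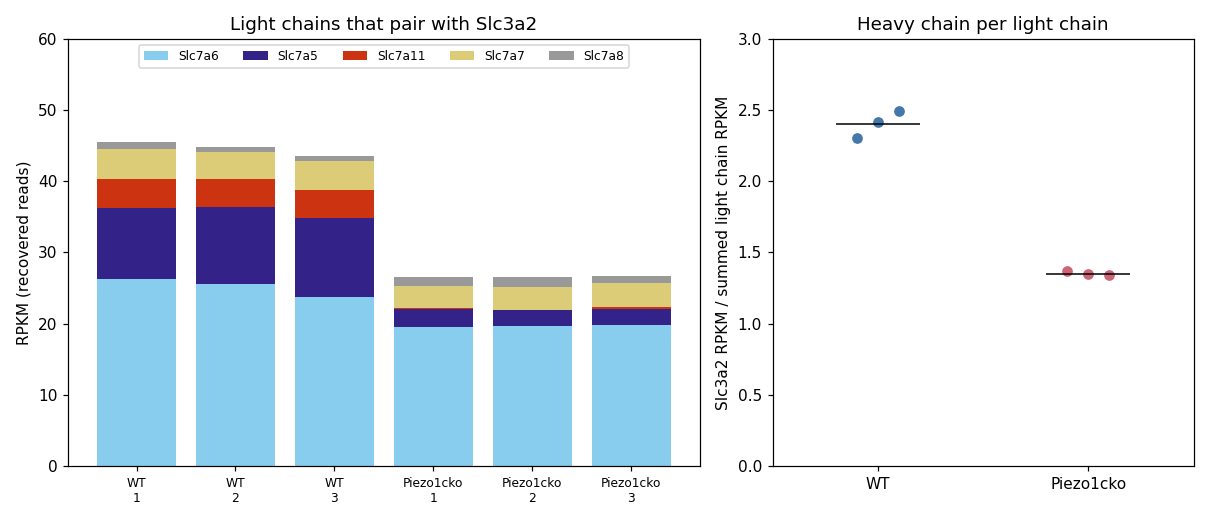
Left, RPKM of the 5 measured light chains stacked for each library. Right, the ratio of *Slc3a2* RPKM to the summed light chain RPKM, 1 point per library with the group mean as a line. The *Slc7a11* and *Slc7a5* segments shrink in all 3 Piezo1cko libraries and the ratio goes from 2.40 ± 0.0982 to 1.35 ± 0.0141.

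*Slc7a1* (CAT1, chr5:148327410-148399904), the main entry route of arginine and lysine and not a partner of *Slc3a2*, was reduced to 46.8% of WT. Its normalized reads were 555, 526 and 511 in WT and 233, 268 and 244 in Piezo1cko libraries. Every Piezo1cko value was far below every WT value. The log2 fold change was -0.60 on the deposited scale (95% interval -0.68 to -0.52, limma adjusted p = 1.65e-10) and -1.11 on reads (95% interval -1.26 to -0.95), under the DEG threshold on the first scale and past it on the second.

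The neutral exchangers of the Slc1 family differed widely in level and in change. *Slc1a4* (ASCT1, chr11:20302180-20332713), which carries serine, alanine, cysteine and threonine, had 171, 185 and 185 normalized reads in WT and 8.36, 3.90 and 8.14 in Piezo1cko libraries. Only 4 to 8 recovered reads were left in each Piezo1cko library, 3.78% of the WT mean, a 26.5-fold lower level. The deposited scale gave a log2 fold change of -1.0003 (95% interval -1.08 to -0.92, limma adjusted p = 4.50e-14) and reads gave -4.72 (95% interval -5.39 to -4.05). Its DEG call on the deposited scale lay at the threshold: the change was -1.02 to -0.98 with 1 library left out, and without WT replicate 2, WT replicate 3 or Piezo1cko replicate 2, or with all libraries shifted to the same median (-0.98), it was lost and 3 transporters remained DEGs. The large difference between the scales shows how strongly the deposited form compresses a gene with few reads.

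*Slc1a5* (ASCT2, chr7:16781340-16798274), the glutamine exchanger that works beside *Slc7a5*, was the most abundant of the 10. It had 7803, 8297 and 8065 normalized reads in WT and 4369, 4579 and 4508 in Piezo1cko libraries. The groups were far apart for so abundant a gene, with 55.7% of the WT mean left. The log2 fold change was -0.62 on the deposited scale (95% interval -0.67 to -0.57, limma adjusted p = 9.50e-14) and -0.86 on reads (95% interval -0.92 to -0.79). In RPKM, *Slc1a5* stood 41.1 to 43.0 times above *Slc1a4* in WT and 492 to 1105 times in Piezo1cko libraries, where the ratio rests on the few *Slc1a4* reads.

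The sodium-coupled carriers of small neutral amino acids moved in opposite directions. *Slc38a1* (SNAT1, chr15:96571418-96642913), a glutamine and alanine importer, had 3651, 3622 and 3498 normalized reads in WT and 4214, 4208 and 4313 in Piezo1cko libraries. All 3 Piezo1cko libraries were above all 3 WT libraries, by a small step to 118% of WT. The log2 fold change was 0.17 on the deposited scale (95% interval 0.12 to 0.23, limma adjusted p = 6.32e-06) and 0.23 on reads (95% interval 0.16 to 0.29).

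*Slc38a2* (SNAT2, chr15:96687392-96699730), the starvation-inducible relative that lies next to it on the chromosome, had 940, 924 and 902 normalized reads in WT and 709, 658 and 698 in Piezo1cko libraries. It was thus lower in each, at 74.6% of WT (log2 fold change -0.27 on the deposited scale, limma adjusted p = 1.25e-06, and -0.44 on reads). In RPKM, the ratio of *Slc38a1* to *Slc38a2* was 1.99, 2.01 and 1.99 in WT and rose past all of these in Piezo1cko LSCs, to a mean of 3.16 ± 0.117.

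*Slc6a9* (GlyT1, chr4:117834506-117875198), the sodium- and chloride-coupled glycine carrier, was the lowest of the 10 and nearly vanished. It had 69, 47 and 52 recovered reads in WT and 0, 1 and 0 in Piezo1cko libraries. No Piezo1cko library came near the WT values. The single read against 168 in WT puts the ratio at 0.609% of WT (95% counting interval 0.0153% to 3.44%, counting error only, since reads carry no molecular identifiers). The deposited scale showed a log2 fold change of only -0.40 (limma adjusted p = 6.70e-09), and reads gave -6.24 with a wide interval of -7.55 to -4.93. Of the exonic bases of *Slc6a9*, 27.8% overlap exons of *Ccdc24* and 9.94% those of *Gm17114* on the other strand, and the library kit does not mark strand. The other 9 transporters share no exonic base with another annotated gene. Glycine transport is also a trait of erythroid precursors, and the erythroid regulator *Klf1* was lower too (79.4 ± 4.50 to 20.5 ± 4.71 normalized reads). Hemoglobin genes were at or below 10.2 normalized reads on average in both groups, and the part of erythroid cells in the *Slc6a9* value was not tested.

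**Figure D3:**
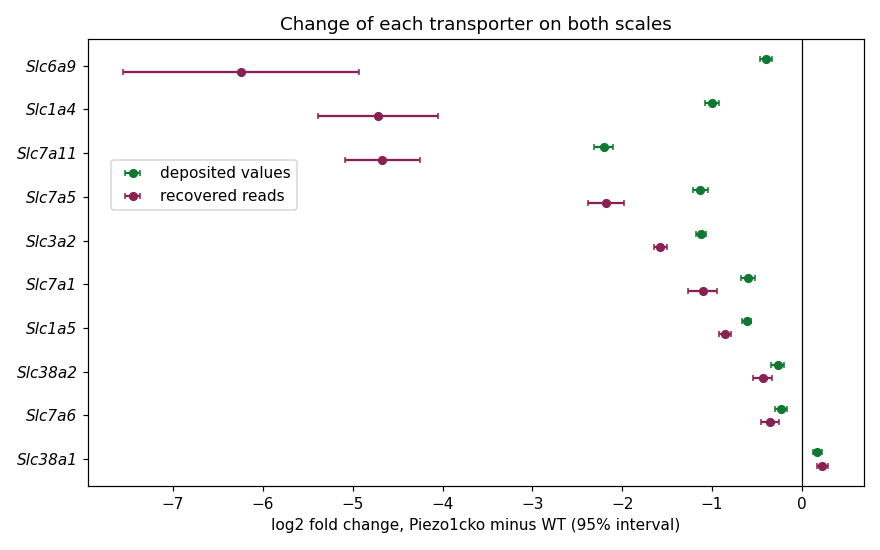
Log2 fold change of each transporter, Piezo1cko minus WT, with 95% intervals, from the deposited values (limma) and from recovered reads (limma-voom). The scales give the same direction for all 10. They diverge most for the genes left with the fewest reads in Piezo1cko libraries, *Slc6a9* (-0.40 and -6.24), *Slc1a4* (-1.0003 and -4.72) and *Slc7a11* (-2.21 and -4.67).

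Per exonic length, the order of levels in WT LSCs was *Slc1a5* (131 ± 4.15 RPKM), *Slc3a2* (107 ± 2.22), *Slc7a6* (25.2 ± 1.29), *Slc38a1* (14.1 ± 0.305), *Slc7a5* (10.7 ± 0.524), *Slc38a2* (7.08 ± 0.137), *Slc7a11* (3.97 ± 0.121), *Slc7a1* (3.12 ± 0.128), *Slc1a4* (3.11 ± 0.143) and *Slc6a9* (0.723 ± 0.139). Neighbours in this order had separate ranges, apart from *Slc7a1* and *Slc1a4*, which did not differ beyond their spread. In Piezo1cko LSCs *Slc1a5* (72.2 ± 1.74) and *Slc3a2* (36.0 ± 0.361) still led, *Slc7a6* (19.7 ± 0.112) and *Slc38a1* (16.6 ± 0.243) followed, and *Slc38a2* (5.23 ± 0.206) stood above *Slc7a5* (2.35 ± 0.164). *Slc7a1* (1.45 ± 0.104) stood above *Slc7a11* (0.162 ± 0.0629) and *Slc1a4* (0.116 ± 0.0430), whose ranges overlapped. The 9 carriers without the heavy chain summed to 196 to 203 RPKM in WT and 116 to 119 in Piezo1cko libraries. Of this sum *Slc1a5* made up 65.8% ± 0.951 and 61.3% ± 0.710, and *Slc38a1* 7.11% ± 0.197 and 14.1% ± 0.209.

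Genes with a profile most like that of *Slc7a11* over the 6 libraries were sought among all genes tested, by the root mean square difference of deposited log2 values centred on WT. The closest were the translation initiation subunit *Eif3b* (0.0760), *Rps3a3* (0.104), asparagine synthetase *Asns* (0.108), the transcription factor *Cebpb* (0.132) and the small GTPase *Arf6* (0.169). *Asns* went from 3430 to 346 normalized reads and *Cebpb* from 950 to 34.4. *Rps3a3* carries the name of a ribosomal protein copy, so its reads may be shared with near-identical genes. For *Slc3a2* the closest were *Mdfic* (0.00930), *Yrdc* (0.00957), its own partner *Slc7a5* (0.0239), *Enpp1* (0.0320) and *C3* (0.0336). The measure follows the size of the change on the deposited scale, and all 10 places are a description without a test. In normalized reads the genes closest to *Slc3a2* kept 12.4% (*Mdfic*) to 26.8% (*Yrdc*) of WT, against 33.8% for *Slc3a2*.

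The counts of the lists that follow stand beside the 31.4% of all genes that were lower and the 31.6% that were higher. Other amino acid carriers of the cell surface made a list of 32, in which *Slc7a7* and *Slc7a8* were already counted with the light chains above. Of the 32 listed, 14 could be tested on the deposited values. Of these, 7 were lower, 5 higher and 2 past neither side of the threshold, with a median log2 fold change of -0.05. The largest of these changes as deposited was a rise of the glutamate and aspartate carrier *Slc1a3*, with 49.7 ± 8.29 normalized reads in WT and 284 ± 13.5 in Piezo1cko LSCs (log2 fold change 0.96, limma adjusted p = 4.25e-13). The taurine carrier *Slc6a6* rose from 801 ± 12.7 to 1312 ± 54.9 (0.47), the neutral carriers *Slc36a4* (0.17) and *Slc7a8* (0.17) rose by less, the large neutral carrier *Slc43a1* fell from 122 ± 2.41 to 38.6 ± 5.53 (-0.44), and *Slc6a20b* fell from 34.0 ± 2.63 to 8.88 ± 5.91 (-0.18). On reads the count was 9 lower and 5 higher of 15, and *Slc38a5* (-4.00), *Slc7a2* (-3.21), *Slc6a17* (3.10) and *Slc1a1* (-2.75), all with at most 11.1 normalized reads on average in either group and named after their values were seen, changed by more than *Slc1a3* (2.51).

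Of the 8 lysosomal carriers tested, which move amino acids across the membrane of the lysosome, 5 were higher and 1 lower, beside 31.6% and 31.4% of all genes, with a median of 0.13. The cationic carrier *Pqlc2* (159 ± 9.15 to 273 ± 14.3 normalized reads, 0.36), the glutamine carrier *Slc38a7* (490 ± 16.1 to 714 ± 28.7, 0.33), *Slc36a1* (0.20), the cystine exporter *Ctns* (447 ± 22.3 to 538 ± 15.1, 0.16) and the arginine sensor *Slc38a9* (0.10) rose. *Mfsd12*, needed for cysteine entry into lysosomes, fell (1101 ± 20.4 to 864 ± 68.0, -0.23). *Slc15a3* (14.4 ± 3.93 and 8.12 ± 1.29) and *Slc15a4* (739 ± 28.8 and 752 ± 56.2) did not pass the test. Among 13 mitochondrial carriers tested, 5 were lower and 3 higher, close to the shares over all genes, with a median of -0.02. The basic amino acid carrier *Slc25a29* (0.49), the aspartate and glutamate carrier *Slc25a12* (0.33) and *Slc25a40* (0.15) rose, and the *Slc25a12* paralog *Slc25a13* (-0.39), the branched-chain carrier *Slc25a44* (-0.23) and the ornithine carrier *Slc25a15* (-0.16) fell.

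Of 12 tested genes that use cystine or that act on *Slc7a11* protein, 9 were lower and 1 higher, with a median of -0.30 on the deposited scale. The glutathione-degrading enzyme *Chac1* went from 301 ± 8.40 to 4.39 ± 2.16 normalized reads (-1.51, limma adjusted p = 1.07e-16), *Cd44*, which stabilizes the carrier at the surface, from 3521 ± 132 to 1603 ± 61.5 (-0.80), cysteinyl-tRNA synthetase *Cars* from 1248 ± 20.0 to 545 ± 20.0 (-0.77) and *Gclm*, the modifier subunit of the first enzyme of glutathione synthesis, from 872 ± 41.0 to 383 ± 31.4 (-0.72). Thioredoxin reductase *Txnrd1* was lower by less (-0.52). The transsulfuration enzyme *Cth*, which makes cysteine from methionine-derived cystathionine, had 45.8 ± 2.18 normalized reads in WT and 0 in every Piezo1cko library, at least 15.3-fold lower against a floor of 3 reads per library. The deubiquitinase *Otub1*, a stabilizer of *Slc7a11*, was the gene that rose (0.30).

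Of 19 genes known to regulate these carriers, 17 were lower, 1 was higher and 1 did not pass the test, with a median of -0.34. On recovered reads 16 were lower, 1 was higher and 2 did not pass. The list mixes activators, repressors and stress-response genes, so its count gives no single direction for the carriers. *Trib3*, a stress-induced pseudokinase, went from 1556 ± 46.3 to 17.6 ± 7.81 normalized reads (-3.17, limma adjusted p = 3.67e-20), *Cebpb* from 950 ± 10.5 to 34.4 ± 1.73 (-2.37) and the leucine sensor *Sesn2* from 1661 ± 117 to 230 ± 14.7 (-1.80). *Hif1a* fell from 877 ± 31.1 to 356 ± 11.3 (-0.79) and the stress factor *Ddit3* (CHOP) from 291 ± 21.4 to 80.0 ± 1.79 (-0.77). The ubiquitin ligase *Nedd4* was the gene that rose (0.58). The known activators of *Slc7a11* transcription *Atf4* (1128 ± 44.5 to 704 ± 5.70, -0.44) and *Nfe2l2* (1267 ± 17.3 to 703 ± 10.9, -0.56), named here after their values were seen, fell as well. The list also holds *Keap1*, *Bach1* and *Trp53*, known to restrain this transcription. With 1 gene higher and 1 not past the test, most of these fell too, so a fall was not particular to activators. Of 11 known *Hif1a* targets tested, 3 were lower, 4 higher and 4 past neither side, close to the shares over all genes, with a median of -0.02. *Vegfa* fell (73.8 ± 2.18 to 21.8 ± 5.30, -0.32) and *Pgk1* by less (-0.15), while the prolyl hydroxylases *Egln1* (33.4 ± 4.37 to 78.7 ± 7.58, 0.26) and *Egln3* (0.16), *Bnip3* (0.17) and *Car9* (0.15) rose.

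**Figure D4:**
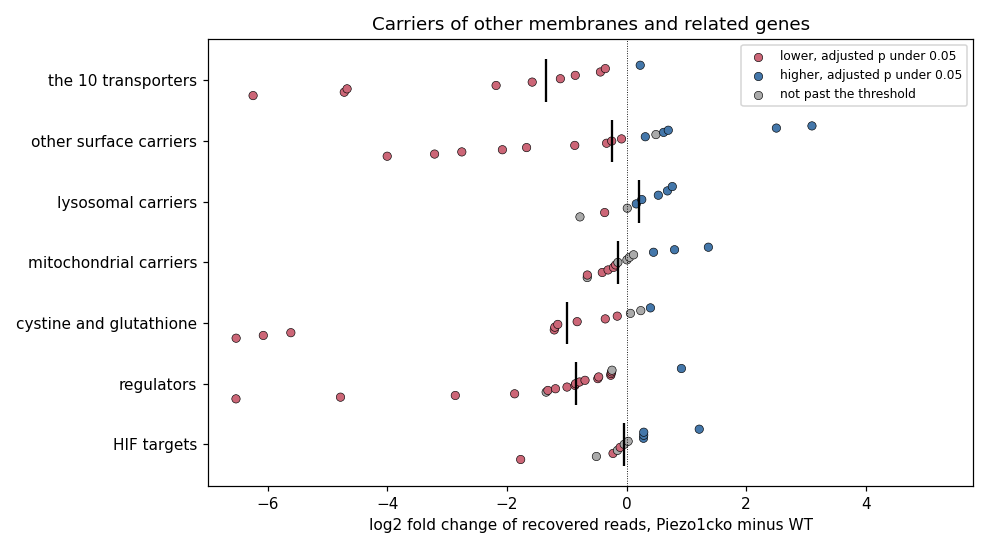
Log2 fold change of recovered reads, Piezo1cko minus WT, for the 10 transporters and 6 related lists. Each point is a gene, coloured by its limma-voom call, and the black bar is the list's median. The medians of the 10 (-1.34), of cystine and glutathione genes (-0.99) and of the regulators (-0.85) lie well below 0, those of other surface (-0.25), lysosomal (0.21) and mitochondrial carriers (-0.14) and of *Hif1a* targets (-0.04) near it.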

How the data were processed

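RNA-seq libraries of LSCs (3 WT, 3 Piezo1cko) were made by a protocol based on Smart-seq2 with Tn5 fragmentation. According to the submitters' processing notes and the methods, the authors' tools were fastp version 0.20.1 for trimming, HISAT2 version 2.2.1 for mapping (GRCm38), featureCounts version 2.0.1 for counting and, for normalization, DESeq2 version 1.28.1. The deposited table holds log2 values for the 6 libraries in the form of a regularized log. Its symbols were matched to GENCODE M21. No column of per-sample values was left unused (0).

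Genes with a mean value of at least 1 (16746) entered limma version 3.58.1 (in R version 4.3.3) as lmFit and eBayes with a trend and no covariate, followed by Benjamini-Hochberg adjustment. No pseudocount was added. The regularized log was undone by finding the size factors and shrinkage that made values whole (12 of 12 starting points reached the best fit, and 22.3% of values were whole with the shrinkage 10% off). Reads were fitted with limma-voom and trimmed mean of M-values (TMM) factors where a gene had 10 reads or more over all libraries. On simulated data for this comparison, 6000 genes returned 100% of reads, the limma step found 200 of 200 changed genes (12 false calls of 16746 genes) and the voom step 185 of 200 (6 false calls of 17045). The 6000 genes were transformed with dispersions exactly on the fitted trend, and their starting means ended below those of the most abundant transporters. That setting is easier than these data, so the 100% is not the share recovered here. Replicate libraries were not duplicates. Other steps used pandas version 2.3.3, scipy version 1.17.1, numpy version 2.4.6 and matplotlib version 3.10.9 under Python version 3.11.15.

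The 10 transporters and all lists were chosen with earlier results of these data known. Named genes are the 10, *Piezo1*, per list at most 6 called genes with the largest change (every measured gene in lists of up to 10), the 5 genes most like *Slc7a11* and *Slc3a2*, and the marker genes. *Atf4*, *Nfe2l2* and *Otub1* were added after their values were seen. *Keap1*, *Bach1* and *Trp53* are named for their roles, without values. Alternatives were no filter, a mean of at least 5, libraries shifted to the same median, no variance trend, a replicate block, each library left out, and recovered reads with TMM factors or library totals.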

Additional observations from a re-analysis of the deposited data

How the results depend on the processing

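Of 234 recomputed values, 230 kept their direction and their side of the adjusted p threshold or, for counts, stayed within 1.5 times, among them the direction and call of each of the 10 transporters. *Slc6a9* has a mean value under 5 and was not tested under that filter. The number of transporters that were lower DEGs, 4 as deposited, was 3 to 4 with 1 library left out and 3 with libraries shifted to the same median, where *Slc1a4* was lost, and 6 on recovered reads. The largest shifts were in DEG counts over all genes, which rest on the shrinkage of the deposited scale: 94 lower and 43 higher as deposited became 2137 and 2181 on recovered reads with TMM factors, and 2078 and 2255 with library totals, where fold changes are not shrunken. Leaving out 1 library moved *Slc7a11* between -2.27 and -2.15 on the log2 scale and *Slc3a2* between -1.13 and -1.11.

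The study's methods name no pairing by replicate number, and the main fit used none. The deviations of equally numbered WT and Piezo1cko libraries correlated at 0.195, 0.161 and 0.0696, and those of unequal numbers at -0.170 to 0.0301. Each library thus correlated best with its own number, and whether the numbers mark a pairing was not tested. With the replicate block, 5513 genes were lower and 5542 higher, against 5258 and 5298 without it, and the 9 lower and 1 higher transporters stayed as they were. *Slc1a4* (4 to 8 reads), *Slc6a9* (0 to 1) and *Slc7a11* (23 to 47) have few reads in Piezo1cko libraries, so the size of their changes is less precise than that of the abundant carriers.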
